A study of Bos taurus with 15 samples.

Results

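The transcripts of 10 effector genes of cytotoxic lymphocytes, PRF1, GZMA, GZMB, GZMK, NKG7, CCL5, CST7, KLRD1, KLRK1 and EOMES, were measured in 15 Holstein cows, from thymus taken at the slaughterhouse. 7 cows were untreated controls. The other 8 had been given prednisolone, a synthetic glucocorticoid, by mouth at a dose of 30 mg per head each day for 35 days. Each animal's RNA was labelled with 1 dye and hybridised to 1 Agilent bovine array, and beyond the breed the labels name no age, genotype or further treatment. Members were the probes whose gene name in the scanner files, or the symbol in brackets in their description, was 1 of the 10 symbols, with letter case ignored. This gave 10 probes for 10 genes, out of 21475 bovine probes and 15399 named genes on the array.

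Cytotoxic lymphocytes, that is killer T cells and natural killer (NK) cells, destroy target cells by releasing granules. Perforin (PRF1) makes pores in the target membrane, and granzymes, which are serine proteases, enter through them and start cell death. CCL5 is a chemokine made by such cells, NKG7 and CST7 are granule proteins, KLRD1 and KLRK1 are lectin-like receptors, and EOMES is a transcription factor of the cytotoxic programme. The thymus is mainly the site where immature T cells develop, and mature killer cells are a minority there. Glucocorticoids such as prednisolone drive immature thymocytes into cell death and dampen the effector functions of lymphocytes.

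Values are log2 signals relative to the 75th percentile of the bovine spots of the same array, so that 0 is the level of that percentile. Such values compare animals for 1 probe and not 1 gene with another. 9 members passed the filter, which asked that at least 1 spot of a probe be well above background on 7 or more of 15 arrays, and KLRD1 did not pass. 16069 probes were tested in all. Whole thymus was measured, so that fewer cytotoxic cells and less RNA per cell cannot be told apart.

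Across the arrays 67.1% to 77.7% of bovine spots were well above background. The arrays lay on 4 slides. Prednisolone animal 6 shared slide 1 with controls 1, 2 and 5, and prednisolone animal 1 shared slide 3 with controls 4, 6 and 7. On slide 2 were prednisolone animals 3, 5 and 8 together with control 3. Slide 4 held prednisolone animals 2, 4 and 7 and no control, and its arrays stood apart from the rest for several members, as described below. The tissue carried the markers of thymus: all 6 measured thymocyte genes, among them RAG1 and DNTT of receptor gene rearrangement, all 7 measured genes of thymic epithelium and all 7 measured T cell genes that passed the filter were well above background on all 15 arrays. CD5, another T cell marker, did not pass the filter. Of 6 NK cell markers with a probe, the receptor genes NCR1 and KLRF1 did not pass the filter, while NCR3, FCGR3A and TYROBP were well above background on all arrays and KLRB1 on 3 of the 7 controls' and 6 of the 8 treated cows' arrays.

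For 2 members, granzyme A and granzyme B, the name on the probe and the gene that now carries it need to be told apart. The probe described as granzyme B was designed on an accession of LOC617313, which the RefSeq gene table (assembly ARS-UCD2.0) lists as a separate gene, with 4 genes between it and GZMB on the same chromosome. A second probe on that accession is described as granzyme H. The gene that RefSeq now names GZMB has a probe of its own, labelled BDMD1 in the scanner files. For granzyme A, RefSeq lists the neighbouring genes gzmA and GZMA, with no gene between them, and GZMK is the next gene. The probe found by name belongs to gzmA and another probe to GZMA. KLRK1 had another probe too. Both KLRK1 probes were labelled KLRC and lay on the same accession. Granzyme genes of such clusters are similar in sequence, so a probe may also have bound transcripts of a neighbour.

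The question of the comparison is which transcripts differ between treated and untreated cows. No cytotoxic effector gene passed the test in either direction. Of the 9 members tested, 8 had a lower mean in treated cows and 1, GZMK, a higher mean, and 0 passed (limma, Benjamini-Hochberg adjusted p under 0.05 over all probes tested), as did 0 of 16069 probes (0%). At an unadjusted limma p under 0.05 there were also 0 members, against 3.1% of all probes that were lower and 3.98% that were higher with prednisolone. The median log2 difference of the members, prednisolone minus control, was -0.20, against -0.00044 over all probes tested, of which 50.1% were below 0. Among the 9 members the values of the groups overlapped for every gene, and over all probes 0.118% had groups that did not overlap.

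**Figure D1:**
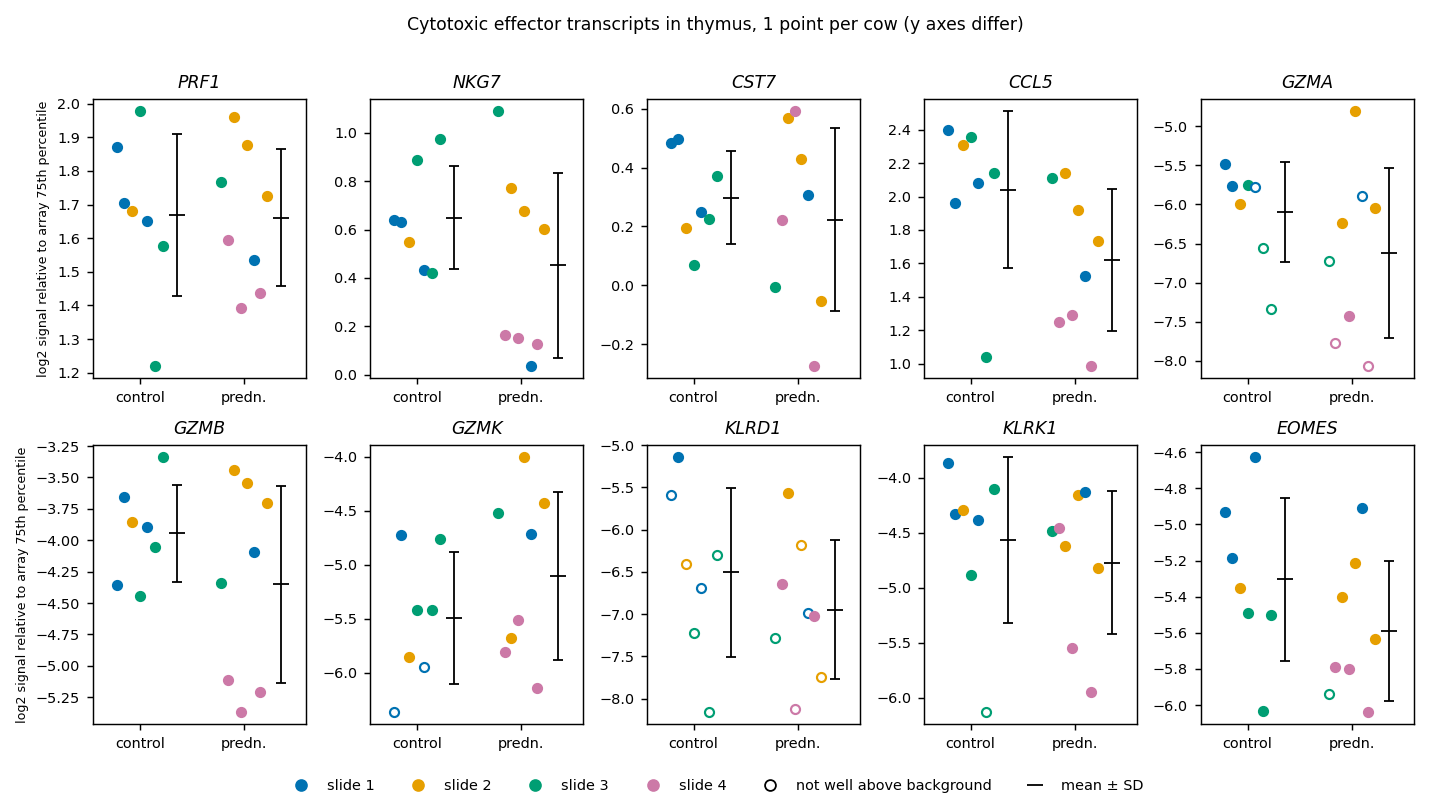
Log2 signal relative to the 75th percentile of the array (y axis, a separate scale in each panel) for the 10 members in 7 control and 8 prednisolone cows; each point is 1 cow, coloured by slide, open where no spot was well above background, and bars show the mean and SD of a group. The groups overlap in every panel, and the 3 animals of slide 4 are at or near the bottom for CCL5, GZMA and GZMB.

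PRF1, the pore-forming protein without which granzymes do not reach their targets, was well above background on all 15 arrays. Its value ran from 1.22 through a median of 1.68 to 1.98 in controls, and from 1.39 through 1.66 to 1.96 in treated cows. The ranges were almost the same, and the lowest value of all belonged to a control, animal 6. The difference was -0.0078 ± 0.11 (SE; limma, adjusted p = 0.994), and its 95% interval, -0.25 to 0.24, corresponds to 0.840-fold to 1.18-fold of control. This was the narrowest interval among the 9 members. Both spots of the probe agreed closely, with a median difference of 0.043 between them on the same array.

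NKG7 is a protein of the granule membrane that takes part in the release of granules. Its value ran from 0.42 through a median of 0.63 to 0.98 in controls and from 0.038 through 0.39 to 1.09 in treated cows. The 4 lowest values belonged to treated animals, the 3 of slide 4 and animal 6 of slide 1, and so did the highest. The difference of -0.20 ± 0.16 (SE; limma, adjusted p = 0.834) was smaller than the spread between treated cows (SD 0.38, n = 8).

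CST7, a protease inhibitor that acts on the cathepsins which activate granzymes, ran from 0.070 through a median of 0.25 to 0.50 in controls. In treated cows it ran from -0.27 through 0.27 to 0.59, so that the lowest and the highest animal were both treated. The difference was -0.075 ± 0.13 (SE; limma, adjusted p = 0.936).

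CCL5 attracts T cells, monocytes and other leukocytes, and among the members tested it had the smallest p. Its value ran from 1.04 through a median of 2.14 to 2.40 in controls, where the low value of animal 6 stood apart from the next at 1.96. In treated cows it ran from 0.99 through 1.63 to 2.14. Of the 7 controls, 6 lay above the treated median, and the 3 treated animals of slide 4 lay between 0.99 and 1.29. The difference was -0.42 ± 0.22 (SE), or 0.747-fold of control (95% interval 0.542 to 1.03), with an unadjusted limma p of 0.0723 and an adjusted p of 0.718, and did not pass. Without control 6 it was -0.59, and without the arrays of slide 4 it was -0.15.

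Granzymes cut proteins inside the target cell, each with its own preference for substrates. The probe described as granzyme B, on LOC617313, was well above background on all arrays. It ran from -4.45 through a median of -3.89 to -3.34 in controls and from -5.37 through -4.22 to -3.44 in treated cows. The 3 arrays of slide 4, between -5.37 and -5.12, lay below all 12 other arrays. The other 5 treated animals, between -4.34 and -3.44, lay within the range of the controls. Before centring the gap was small: the signals of slide 4 were 33.7 to 41.2, and control 1 was at 41.3. The difference was -0.41 ± 0.31 (SE; limma, adjusted p = 0.816), and 0.12 without slide 4. The second probe on the same accession, described as granzyme H, followed it closely, with Pearson r = 0.923 and Spearman rho = 0.929 between the probes over 15 animals, which share slides, and r = 0.777 after each slide's mean was taken off. These are measurements of 1 accession and not independent replicates. The difference of the granzyme H probe was -0.56 ± 0.27 (SE; limma, unadjusted p = 0.0542, adjusted p = 0.701). After slide centring the probe described as granzyme B also had r = 0.947 with the probe of the RefSeq GZMA gene (0.497 as measured). That probe was well above background on 3 of 15 arrays, so a high r alone does not identify the transcript.

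The probe of the gene that RefSeq names GZMB varied between animals in another way. It ran from -1.19 through a median of -0.76 to 0.35 in controls and from -1.92 through -0.54 to 0.29 in treated cows, and was well above background on all arrays. Its difference was -0.038 ± 0.31 (SE; limma, adjusted p = 0.987). With the probe described as granzyme B it had r = 0.232, and with the probe described as granzyme H r = 0.237, over 15 animals that share slides. A granzyme B-like probe of the gene LOC508646, which lies further along the same cluster, differed by -0.011 ± 0.17 (SE; limma, adjusted p = 0.994).

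**Figure D2:**
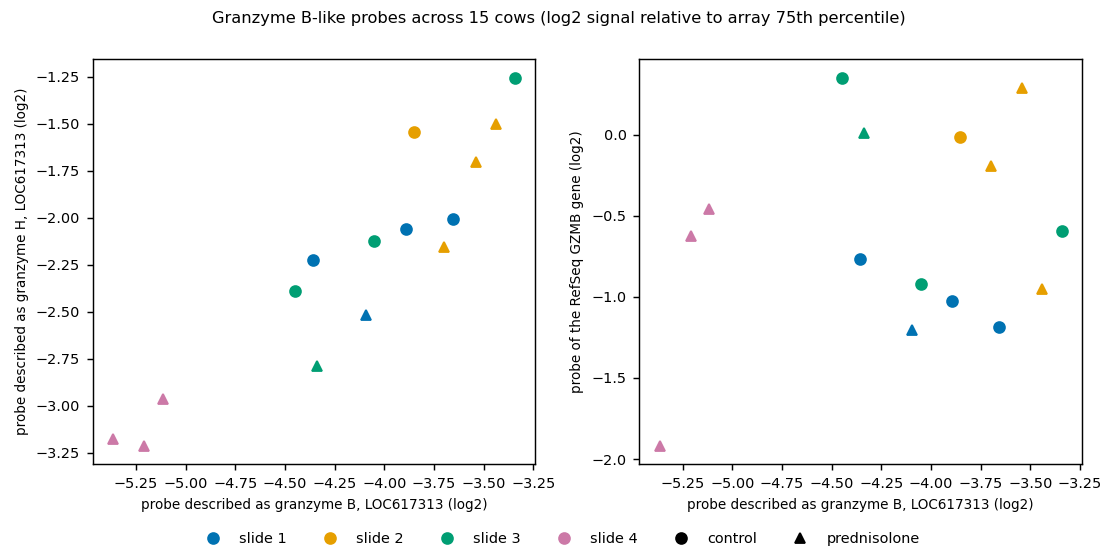
Log2 signal relative to the 75th percentile of the array for granzyme B-like probes in 15 cows, coloured by slide (circles control, triangles prednisolone). Left, both probes on LOC617313 rise together (r = 0.923), with the 3 animals of slide 4 lowest on both; right, the probe of the RefSeq GZMB gene against the probe described as granzyme B (r = 0.232).

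GZMK, a granzyme with tryptase activity that is typical of memory T cells, was the 1 member with a higher mean in treated cows. Among controls 5 of 7 arrays, and among treated cows 8 of 8, had at least 1 spot well above background, and 4 and 7 had both. Its value ran from -6.36 through a median of -5.42 to -4.72 in controls and from -6.14 through -5.11 to -4.00 in treated cows. The 4 highest values belonged to treated cows, animals 5 and 8 of slide 2, 1 of slide 3 and 6 of slide 1. The lowest of these, animal 6 at -4.715, was almost level with controls 2 (-4.719) and 7 (-4.757). Before centring, its signal of 37.4 was below theirs, 42.5 and 47.7. The difference was 0.39 ± 0.34 (SE; limma, adjusted p = 0.845). Within slides 1, 2 and 3, each with a single animal on 1 side, it was 0.96, 1.15 and 0.68, and with slide as a block 0.93 ± 0.36 (SE; limma, unadjusted p = 0.0224, adjusted p = 0.444). That difference did not pass either, and in the same fit 5% of all probes were higher and 4.57% lower at an unadjusted p under 0.05. Among the 9 members tested, GZMK was the only one whose difference had 1 sign in all 3 slides. The share of all probes with 1 sign in all 3 slides was not computed. On slide 1, controls 1 and 5 were not well above background, with signals of 10.3 and 12.2 before centring. The remaining control of that slide, control 2, was almost level with prednisolone animal 6. With normexp background correction its difference was -0.69, where the median of all probes moved by -0.21.

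Granzyme A, a tryptase that is abundant in killer cells, was hardly measured. Of the gzmA probe at least 1 spot stood well above background in 4 of 7 controls and 4 of 8 treated cows, but both spots in 0 of 15 animals. Its spots differed by a median of 1.38 on the same array, and on 5 arrays the scanner software had put a surrogate value in place of a signal. The value ran from -7.33 through a median of -5.77 to -5.48 in controls and from -8.06 through -6.48 to -4.81 in treated cows, a difference of -0.53 ± 0.44 (SE; limma, adjusted p = 0.840). The probe of the other gene, GZMA, stood well above background in 0 of 7 controls and 3 of 8 treated cows and was not tested. Those 3 were the animals of slide 4, with signals of 9.0 to 13.4 before centring. Prednisolone animal 5 of slide 2, at 20.3, was not flagged, so these counts do not compare the treatments.

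KLRK1, known as NKG2D, recognises stress ligands on target cells and activates killing. Its signal stood well above background in 6 of 7 controls and 8 of 8 treated cows. It ran from -6.12 through a median of -4.32 to -3.86 in controls and from -5.95 through -4.55 to -4.13 in treated cows. Control 6 and prednisolone animals 7 and 4 were lowest, and the other 12 animals lay between -4.89 and -3.86. The difference was -0.20 ± 0.34 (SE; limma, adjusted p = 0.935), and it was -0.46 without control 6 and -0.034 without prednisolone animal 7. The other KLRK1 probe, on the same accession, was above background on 4 of 7 and 6 of 8 arrays. It gave 0.23 ± 0.60 (SE, limma adjusted p = 0.961). The probes did not follow each other across animals (r = 0.0041 over 15 animals), so the reading of 1 was not repeated by the other.

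KLRD1, known as CD94, pairs with receptors of the NKG2 family on NK cells. Its signal stood well above background in 1 of 7 controls and 3 of 8 treated cows, and it was not tested. The treated cows were animal 3 of slide 2 and animals 2 and 7 of slide 4. Before centring, animal 7 was flagged at a signal of 10.1, while control 3 of slide 2 was not at 20.5. The counts therefore do not compare the treatments. Its signal gives no level on the remaining arrays, only that it was not well above background there.

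EOMES, which with its relative T-bet drives the genes of perforin and granzymes, had at least 1 spot well above background in 7 of 7 controls and 7 of 8 treated cows, and both spots in 4 and 6. It ran from -6.03 through a median of -5.35 to -4.63 in controls and from -6.04 through -5.71 to -4.91 in treated cows. The 4 animals of slide 1, 3 controls and 1 treated cow, had the highest values after centring. Before centring their signals, 27.8 to 32.7, were not the highest. Control 3 and prednisolone animal 5 of slide 2 were then higher, at 42.6 and 48.2. The difference was -0.29 ± 0.20 (SE; limma, adjusted p = 0.807).

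**Figure D3:**
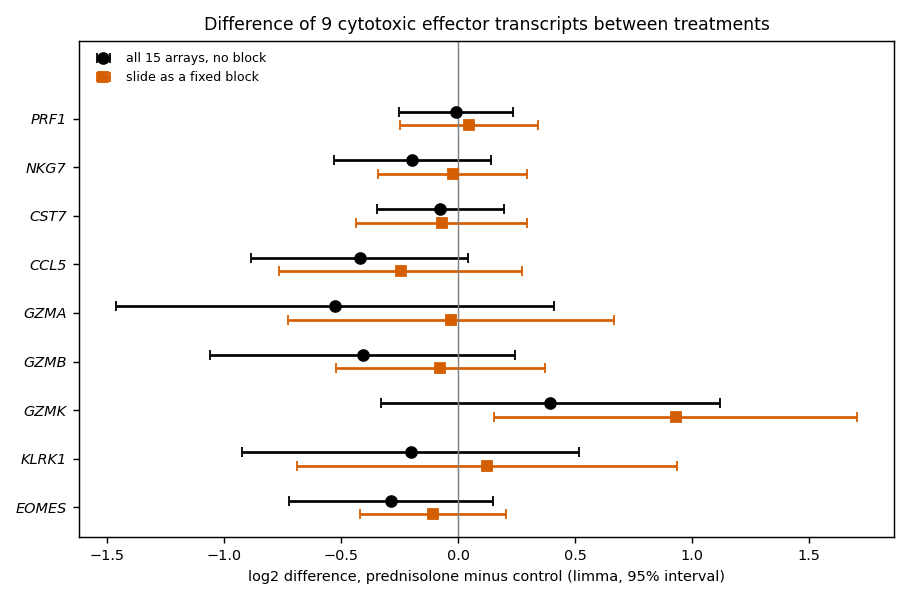
Log2 difference, prednisolone minus control, for the 9 members tested (x axis), with 95% intervals from limma over all 15 arrays (black circles) and with slide as a fixed block (orange squares). Without the block every interval includes 0; with it only that of GZMK lies above 0, and its adjusted p is 0.444.

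The slide on which an array lay went with the values of several members. In a fit with treatment and slide, 4 of 9 members differed between slides (limma F test, adjusted p under 0.05), against 30.6% of all probes tested. They were the LOC617313 granzyme (adjusted p = 0.00246), EOMES (0.00363), gzmA (0.00480) and NKG7 (0.0443). The mean of slide 4 was below that of the other 5 treated animals for 9 of 9 members, against 57% of all probes. For 3 of 9, CCL5, gzmA and the LOC617313 granzyme, all 3 animals of slide 4 lay below each of the other 5 treated animals, as did 16.1% of all probes. On that slide the LOC617313 granzyme was -5.23 ± 0.13 (SD, n = 3), against -3.82 ± 0.38 (SD, n = 5) in the other treated cows, and CCL5 was 1.18 ± 0.16 against 1.89 ± 0.26. NKG7 was 0.15 ± 0.021 against 0.63 ± 0.38, and there prednisolone animal 6 was lower still.

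The lower means of treated cows were not seen in all slides. With slide as a fixed block the median difference of the members was -0.031, with 6 of 9 below 0, against 49.9% of all probes, and 0 passed (limma). Without the 3 arrays of slide 4 it was 0.10. Within slides 1, 2 and 3 the difference was below 0 for 6, 3 and 4 of 9 members. CCL5 was -0.62, -0.38 and 0.27 within slides 1, 2 and 3 and -0.24 ± 0.24 (SE) with the block (limma, adjusted p = 0.800), and the LOC617313 granzyme was -0.12, 0.29 and -0.39, and -0.075 ± 0.21 (limma, adjusted p = 0.945). The granzyme H probe on the same accession gave -0.42, -0.24 and -0.87 within slides 1, 2 and 3 and -0.51 ± 0.21 (SE) with the block (limma, unadjusted p = 0.0296, adjusted p = 0.470), and did not pass. Slide 4 held no control, so that for its animals slide and treatment cannot be told apart.

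**Figure D4:**
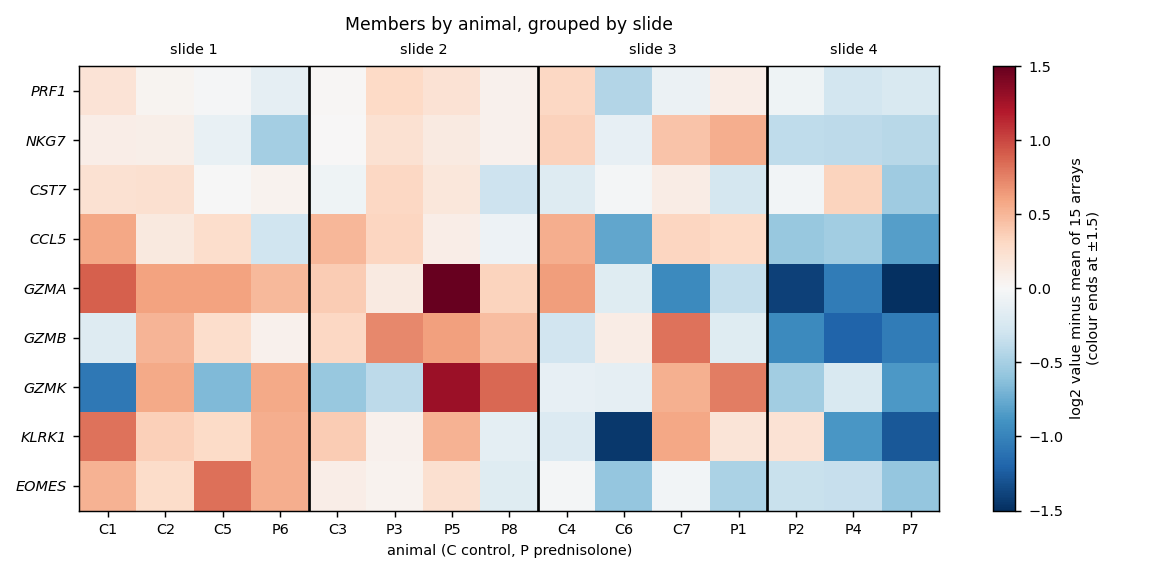
Log2 value of the 9 members tested (rows) in each cow (columns, C control and P prednisolone, grouped by slide), as the difference from the mean of the 15 arrays; colours end at 1.5 in either direction. The animals of slide 4 are below the mean in most rows, and control 6 of slide 3 is low for CCL5 and KLRK1.

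Animals, as measured on their slides, differed in the whole set. Prednisolone animal 7 was among the lowest 3 of 15 for 9 of 9 members, prednisolone animal 4 for 5, and control 6 for 4. Prednisolone animals 7 and 4 were both on slide 4, so for them animal and slide cannot be told apart. Control 1, control 4 and prednisolone animal 5 were each among the highest 3 for 4 members. The spread between animals of 1 group (residual SD) includes differences between slides. It was 0.22 for PRF1, 0.25 for CST7, 0.32 for NKG7, 0.42 for EOMES and 0.45 for CCL5. For the LOC617313 granzyme, KLRK1, GZMK and gzmA it was 0.63, 0.70, 0.71 and 0.91, larger than for 90.3% to 95.8% of all probes tested. Near background, as for GZMK and gzmA, this spread includes the error of the spots, which differed by a median of 0.39 for GZMK.

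PRF1, NKG7 and CCL5 tended to vary together across the animals as measured, though their highest values were not all in the same animals. Over the 36 pairs of members, 15 animals each, 35 had a Pearson r above 0 and 5 passed a two-sided permutation test (adjusted p under 0.05 over the 36). The same shares among pairs of other probes were not computed. PRF1 and CCL5 had r = 0.809 (permutation p = 0.0002, adjusted p = 0.0072) and Spearman rho = 0.729 (p = 0.00268, adjusted p = 0.0218). NKG7 and CCL5 had r = 0.748 (permutation p = 0.00158, adjusted p = 0.0239) and rho = 0.725 (p = 0.00303, adjusted p = 0.0218). PRF1 and NKG7 had r = 0.620, which did not pass (permutation p = 0.0139, adjusted p = 0.0667), and rho = 0.732 (p = 0.00293, adjusted p = 0.0218). The remaining pairs that passed on r were CCL5 with KLRK1, KLRK1 with EOMES and gzmA with EOMES. CCL5 and KLRK1 had r = 0.728 (permutation p = 0.00266, adjusted p = 0.0239) and rho = 0.500 (p = 0.0615, adjusted p = 0.221). KLRK1 and EOMES had r = 0.719 (permutation p = 0.00233, adjusted p = 0.0239) and rho = 0.732 (p = 0.00252, adjusted p = 0.0218). For gzmA and EOMES r was 0.701 (permutation p = 0.00425, adjusted p = 0.0306) and rho 0.782 (p = 0.0009, adjusted p = 0.0218). Signal near background limits that last pair. Both spots were well above background on 0 arrays for gzmA and on 10 of 15 for EOMES.

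Fewer pairs passed once slide was taken into account, and single slides hold too few animals for a value within each. After each slide's mean was taken off and values were permuted within slides, 28 of 36 pairs had r above 0 and 0 passed the adjusted permutation test, with 4 at an unadjusted p under 0.05. PRF1 kept r = 0.782 with CCL5 (permutation p = 0.0131, adjusted p = 0.289) and r = 0.740 with NKG7 (p = 0.0161, adjusted p = 0.289), and NKG7 had r = 0.778 with CCL5 (p = 0.0357, adjusted p = 0.428). The value for gzmA and EOMES was then 0.28, and for KLRK1 and EOMES 0.52. Without controls 4 and 6, the animals farthest from the PRF1 median, r between PRF1 and CCL5 was 0.724 as measured. Without the 2 animals farthest from the PRF1 median after slide centring it was 0.480, against 0.782 with all. NKG7 and CCL5 had r = 0.791 as measured without prednisolone animals 1 and 6, against 0.748 with all, and 0.333 after slide centring without 2 animals. PRF1 and NKG7 kept 0.726 after slide centring without 2 animals. As measured, none of the 36 pairs passed the adjusted permutation test over the remaining 13 animals. Over all 36 slide-centred pairs r ran from -0.50, for gzmA with the LOC617313 granzyme, to 0.78.

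**Figure D5:**
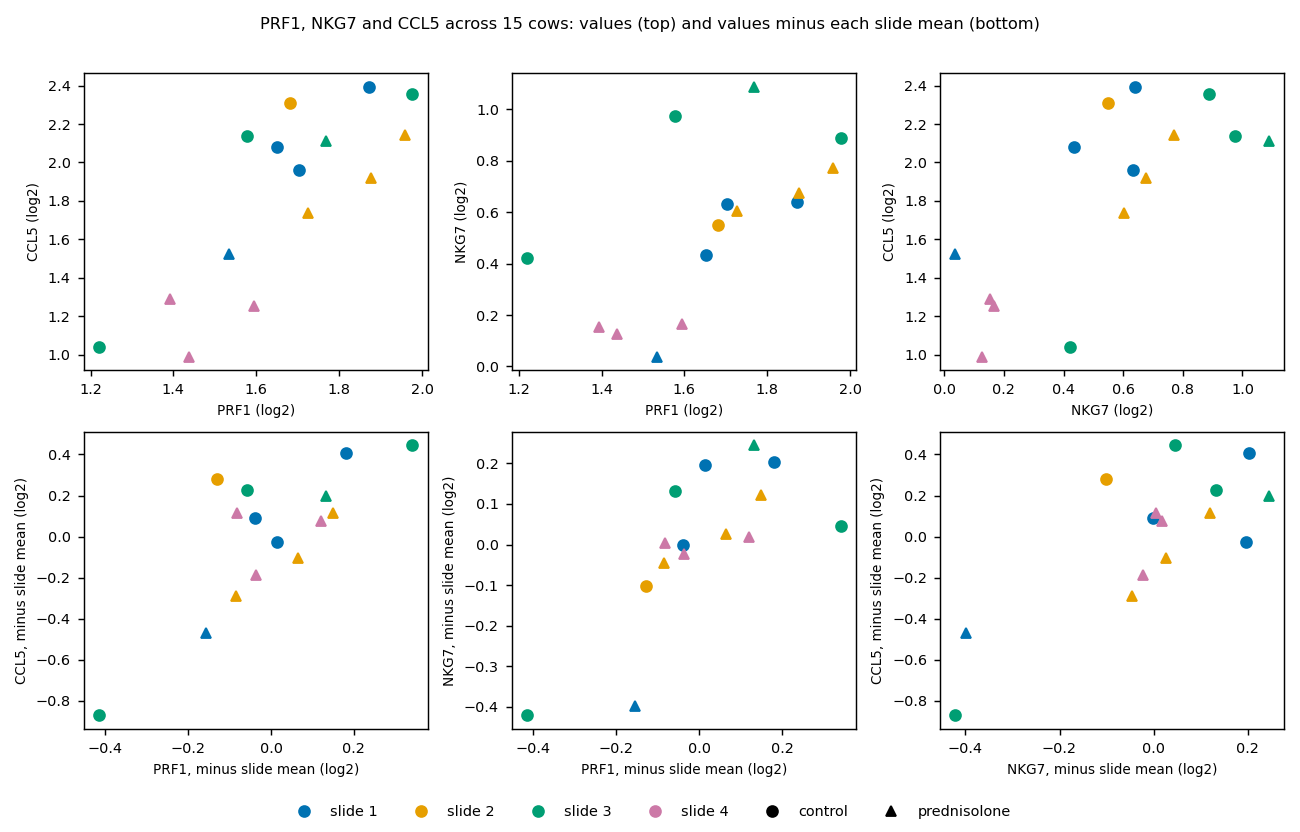
PRF1, NKG7 and CCL5 in 15 cows as log2 signal relative to the 75th percentile of the array (top) and after the mean of each slide was taken off (bottom), coloured by slide (circles control, triangles prednisolone). The points rise together in both rows (r = 0.809, 0.620 and 0.748 on top, 0.782, 0.740 and 0.778 below), with control 6 and prednisolone animal 6 at the low end below.

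By a fixed rule, genes were ranked by how closely they followed the mean of the standardised members over the 15 arrays after slide centring. Among 12249 genes the closest were CALHM6 (r = 0.907), KCTD12 (0.903), PEX3, a factor of peroxisome formation (0.902), ARHGAP18 (0.899), and HAVCR2, the inhibitory receptor TIM-3 of T cells and myeloid cells (0.872). These are the highest of many values and are given as a description. As measured, without slide centring, their r was lower, between 0.283 and 0.591. Their differences between treatments ran from -0.065 to 0.15, with limma adjusted p of at least 0.896, and none passed.

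No gene that builds or releases cytotoxic granules passed the test. Of 18 listed, 12 had a probe and passed the filter, 6 higher and 6 lower, with a median difference of -0.021, and 0 passed the test (limma; also 0 at an unadjusted p under 0.05). Those with the smallest p were the granzyme H probe described above and SRGN, the proteoglycan that packs granule contents (-0.13 ± 0.078 SE, limma adjusted p = 0.772). CTSW, a cathepsin of killer cells, was 0.13 ± 0.14. Of 20 receptors and adaptors of killer cells, 10 passed the filter, 3 higher and 7 lower, with a median of -0.057 and 0 that passed (also 0 unadjusted). TYROBP, the adaptor of activating receptors, was -0.15 ± 0.086 (SE, limma adjusted p = 0.747) and SH2D1B, an adaptor of the SLAM receptors, -0.23 ± 0.18 (0.819).

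Cytokines, chemokines and their receptors gave 14 measured of 24, 8 higher and 6 lower, with a median of 0.039 and 0 that passed (limma; also 0 unadjusted). CXCR6, a chemokine receptor of tissue-resident T cells, was 0.46 ± 0.26 (SE, limma adjusted p = 0.741) and 0.86 with slide as a block, and TNFSF10, the death ligand TRAIL, was -0.34 ± 0.29 (0.844). Of 12 transcription factors of cytotoxic lymphocytes, 10 were measured, 7 higher and 3 lower, with a median of 0.039 and 0 that passed (also 0 unadjusted). BHLHE40, a regulator of T cell cytokines, was 0.32 ± 0.16 (SE, limma adjusted p = 0.701). RUNX3, which acts with EOMES and T-bet in CD8 T cells, was -0.66 ± 0.41 (adjusted p = 0.768) as measured and 0.15 with slide as a block. RUNX3 differed between slides with a limma F test adjusted p of 3.56e-07. Over all probes tested the median was -0.00044.

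Markers of other cells were set beside the members. Each of the 7 measured T cell markers had a higher mean in treated cows (median difference 0.085), and 0 passed (limma). CD8A, the co-receptor of killer T cells and of many thymocytes, was 0.23 ± 0.071 (SE, unadjusted p = 0.0051, limma adjusted p = 0.568). The mean level of these 7 of 9 markers was 3.56 to 3.78 in controls, 3.75 to 3.90 in treated cows and 3.77 to 3.80 on slide 4. The T cell markers on slide 4 thus lay within the range of the other arrays. For the 4 NK cell markers that passed the filter, of 8 listed, the median was -0.023, and their mean level was -2.79 to -2.01 in controls, -3.09 to -1.93 in treated cows and -3.09 to -2.46 on slide 4.

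Blood and mast cells also carry genes of this set, platelets CCL5 and mast cells granzymes. The 5 of 7 blood markers that passed the filter were all lower with prednisolone, with a median of -0.49 that was 0.00026 with slide as a block, and 0 passed (limma). Their mean level was -0.95 to 0.28 in controls, -1.43 to -0.11 in treated cows and -1.43 to -1.07 on slide 4, below all controls. PF4, a platelet chemokine, did not pass the filter. PPBP, another platelet chemokine, was well above background on all arrays. Its difference was -0.58 ± 0.29 (SE, limma adjusted p = 0.707), and -0.033 with slide as a block. PPBP differed between slides (limma F test, adjusted p = 0.00295). The 4 of 7 mast cell markers had a median of -0.13 and 0 passed, with a mean level of -4.28 to -3.55 in controls, -4.92 to -3.55 in treated cows and -4.92 to -4.38 on slide 4; CPA3 did not pass the filter. All 8 macrophage markers were lower, with a median of -0.25 and a mean level of -0.94 to 0.0053 in controls, -1.10 to -0.21 in treated cows and -1.10 to -0.76 on slide 4, and 0 passed. The part of these cells in the low values of CCL5 and the granzymes on slide 4 was not tested.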

How the data were processed

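Per the file headers, spot intensity values were extracted with Feature Extraction 9.5.1.1, which subtracted background and corrected a multiplicative trend within each array, and which set the flags of single spots, such as well above background. No scaling across arrays is recorded there. A further deposited matrix gives the authors' processed intensity per spot, whose normalization is not given in the sources used here (rank correlation with the processed signal at least 0.99962 on each array).

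From each log2 processed signal the 75th percentile over the 42990 bovine spots of its array was subtracted. Outlier spots were left out and the spots of a probe averaged. Probes with at least 1 spot well above background on 7 of 15 arrays were kept and compared with limma 3.58.1 in R 4.3.3 (statmod 1.5.0), adjusted p under 0.05. Symbols came from the RefSeq gene list of ARS-UCD2.0, by gene number for 9717 probes and otherwise by accession, name or description, and 4474 of 21475 probes stayed unnamed. All members were named, from each related list the 2 genes with the smallest p where none passed, and the 5 genes most like the members. CTSW, CD8A, CPA3 and PPBP were named after their values were seen. Pairs of members were tested with 100000 permutations. Groups follow the treatment label, and replicate numbers come from sample order and pair nothing. The labels do not say more on how the animals relate, so p-values measure the spread between these samples. All arrays were scanned on 1 day. Alternatives were other scalings, normexp (offset 50), the authors' values, filters, slide as a block, slide 4 or single animals left out, eBayes with trend and robust; the filter on all spots and the RefSeq GZMB probe were added after seeing the data. The calculation was tested on simulated data. The members and lists were chosen with earlier results of these data known.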

Additional observations from a re-analysis of the deposited data

Results flagged for a closer look

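The CCL5 value of control 6, 1.04, was far below the other controls, of which the lowest was 1.96. Its gap to that animal was 0.679 of the range of the 7 controls, above Dixon's critical value of 0.568. In 18 groups of animals, 9 members in each treatment, this was the 1 value so far from the others, where chance gives about 1 in 20. Control 6 was also the lowest of 15 animals for KLRK1 and PRF1.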

How the results depend on the processing

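No paired analysis was possible because replicate numbers come from sample order and pair no animals. For the count of probes that passed (limma, 0 as reported), quantile normalization gave 1 probe (adjusted p = 0.0450), and leaving out 1 animal at a time gave 0 to 3, with the 3 when prednisolone animal 1 was left out. No member or gene of the related lists passed with slide as a block or after quantile normalization. The median difference of the members, -0.20 as reported, was -0.69 with normexp background correction, where the median of all probes tested moved by -0.21. With 1 animal left out the median of the members was -0.41 to -0.14. Of the 36 pairs of members, 5 passed as measured, 0 after slide centring and 0 without the 2 farthest animals, where r was still 0.724 for PRF1 with CCL5 and 0.791 for NKG7 with CCL5. The sign of PRF1, -0.0078 as reported, turned with median centring (0.014), normexp (0.064), slide as a fixed (0.047) or random (0.018) block and without slide 4 (0.10), and it ran from -0.082 to 0.044 with 1 animal left out. KLRK1 turned with the authors' values (0.014), slide as a fixed block (0.12), without slide 4 (0.13) and with its other probe (0.23). Without slide 4 gzmA (0.15) and the LOC617313 granzyme (0.12) turned, and GZMK turned with normexp (-0.69). CCL5 and EOMES kept their direction under these alternatives and with slide as a block and 1 animal of slides 1 to 3 left out, a setting added after seeing the data. In that setting NKG7 turned without prednisolone animal 6 (0.23), control 1 (0.0071) or control 2 (0.0061), and CST7 without prednisolone animal 1 (0.0092). The causes were not tested. Signal near background limits GZMK, gzmA, EOMES and KLRK1, and KLRD1 was not tested.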

Other observations

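Most fat cell and B cell markers had a higher mean in treated cows, with groups that overlapped and without passing the test. All 4 of 6 fat cell markers that passed the filter had a higher mean with prednisolone, with a median log2 difference of 0.36, and 5 of 6 B cell markers did, with a median of 0.27 (0 passed in either list, limma). These medians became 0.94 and 0.19 with slide as a block. The mean level of the fat cell markers was -3.45 to -0.39 in controls and -3.63 to 0.54 in treated cows. For the B cell markers it was -1.32 to -0.93 in controls and -1.14 to -0.46 in treated cows.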
